A study of Mus musculus with 6 samples.

Results

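Slc6a6, Csad and Cdo1, the genes of taurine uptake and of local taurine synthesis, were described in wild-type mouse retina. They were taken by gene symbol, and all 3 had a row among the 15465 genes of the tables. Retinas came from C57BL6/J mice with no allele or treatment named, and the labels state no age. There were 3 biological replicates, each a pool of 5 mice, and the 2 technical replicates of each shared 1 deposited column, so n was 3 and there was 1 group. The source labels number the pools differently from the sample titles, which were followed here. Every SD and p-value below rests on the titles and measures only the spread between these columns.

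Taurine is a sulfur-containing amino acid that the retina holds in large amounts, above all in photoreceptors. It serves as an osmolyte and antioxidant, and mice that lack its transporter lose their photoreceptors. Cells obtain it by uptake through TAUT, the sodium- and chloride-dependent transporter encoded by Slc6a6, or make it from cysteine. In synthesis, Cdo1 oxidises cysteine to cysteine sulfinate, Csad removes its carboxyl group to give hypotaurine, and hypotaurine is then oxidised to taurine.

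Levels were taken as RPKM (reads scaled to transcript length and to sequencing depth), a scale that divides by transcript length and so allows genes to be compared. The columns summed to between 249532 and 302634 RPKM, while no read depth is known. The retinal identity of the pools was checked on fixed markers. The 6 rod markers had a median of 1084 RPKM. All 6 markers of Muller glia, of cones, of bipolar cells and of ganglion cells had 1 RPKM or more in every replicate. Of 6 amacrine markers 5 had a row, all 5 from that level. It was reached by 77.5% of all genes, so such counts separate little. The medians of these lists, in turn, were 128, 92.1, 27.1, 49.1 and 66.0 RPKM, against 6.26 RPKM over all genes. Lens markers (7 of 7 from 1 RPKM, summed 1729 to 2392 RPKM) and pigment epithelium markers (7 of 8, summed 270.8 to 501.9 RPKM) were also present, with Best1 of the latter near 0 (0.29 to 0.37 RPKM). Because whole tissue was sequenced, fewer cells of a type and less RNA per cell cannot be told apart.

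The uptake gene stood far above both synthesis genes. Slc6a6 had 290.05, 285.77 and 300.45 RPKM in replicates 1, 2 and 3, a mean of 292 ± 7.55 RPKM (SD, n = 3). Only 68 of the 15465 genes had a higher mean, which placed Slc6a6 above 99.6% of genes. Its 3 values as deposited had a coefficient of variation of 2.58%, but their SD on the log2 scale went from 0.04 to 0.15 once the columns were scaled.

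Csad, the cysteine sulfinate decarboxylase, had an intermediate level. It had 15.31, 16.74 and 12.54 RPKM in replicates 1, 2 and 3, a mean of 14.9 ± 2.14 RPKM that exceeded 72.8% of genes. Cdo1, the cysteine dioxygenase that acts a step earlier, was lowest of the members. It had 3.29, 4.77 and 3.24 RPKM, a mean of 3.77 ± 0.869 RPKM, and 38.6% of genes had a lower mean. The ranges of Slc6a6, Csad and Cdo1 did not overlap. The median gene of the tables had 6.26 RPKM, so Csad lay above it and Cdo1 below it.

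Uptake was then compared with synthesis inside each pool, which cancels any scaling of a whole column. Slc6a6 exceeded Csad 18.9-fold, 17.1-fold and 24.0-fold in replicates 1, 2 and 3. On the log2(RPKM + 0.1) scale, on which folds of low genes are understated, the difference was 4.30 ± 0.25 (SD, n = 3). The difference was larger against Cdo1. Slc6a6 exceeded Cdo1 88.2-fold, 59.9-fold and 92.7-fold, a difference of 6.26 ± 0.34 on that scale. The 2 synthesis genes also differed from each other, with Csad over Cdo1 by 4.65-fold, 3.51-fold and 3.87-fold and a log2 difference of 1.96 ± 0.20. All 3 differences held in 3 of 3 replicates and were between 9.77 and 18.6 times their SD. An exact two-sided sign-flip permutation test over 3 replicates gave p = 0.25 for each, the smallest value that it can give. These ratios depend on the transcript lengths the authors divided by; these lengths are not given in the sources.

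**Figure D1:**
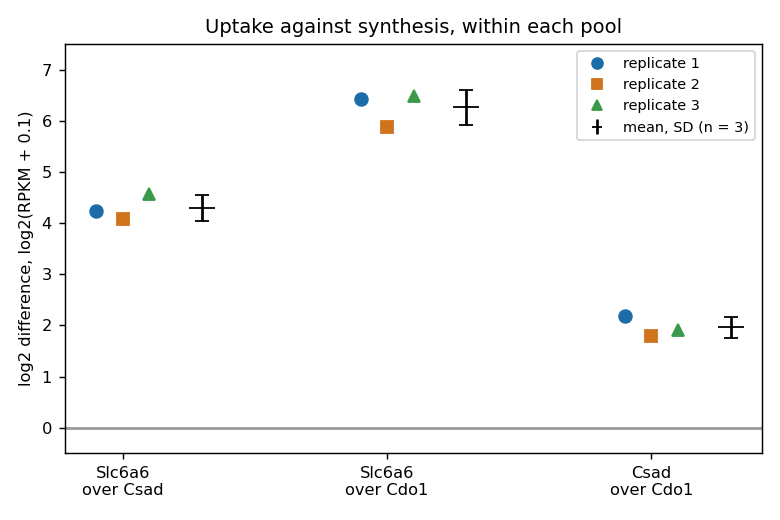
Difference in log2(RPKM + 0.1) between the transporter gene and each synthesis gene, and between the synthesis genes, inside each of 3 retina pools (symbols), with the mean and SD (black). All 9 points lie above 0, with Slc6a6 over Cdo1 highest (mean 6.26) and Csad over Cdo1 lowest (mean 1.96).

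The transporter was next placed among other carriers. Symbols in which another gene's symbol is followed by a digit, such as Stk39 beside Stk3, and the shorter symbols themselves, are less certain in these tables, because many of their rows differ between replicates by several powers of 10. None of the 3 members has such a symbol. Of 199 solute carrier genes with other symbols, a set chosen after the data were seen, Slc6a6 ranked 2nd. The vesicular glutamate transporter Slc17a7 (696 ± 83.6 RPKM) was above it in 3 of 3 replicates. The glutamine transporter Slc38a3 followed with 277.7, 316.41 and 261.98 RPKM, and its range overlapped that of Slc6a6, so the order of these neighbours is not fixed by the data. The photoreceptor exchanger Slc24a1 (209 ± 20.9 RPKM) and the chloride transporter Slc12a5 (157 ± 12.1 RPKM) came next, both below Slc6a6 in every replicate.

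Within the SLC6 family of sodium-coupled transporters, 17 of 20 listed genes had a row. Slc6a6 held 44.0% ± 3.51 (SD, n = 3) of their summed RPKM, and 72.6% ± 2.32 of the sum over the 5 family members without a less certain symbol. The closest of those 5 was the glycine transporter Slc6a9, with 86.26, 84.95 and 71.32 RPKM. Slc6a6 exceeded Slc6a9 by 3.65 ± 0.490 times, in 3 of 3 replicates. The creatine transporter Slc6a8 had 22.6 ± 2.09 RPKM, the neuronal glycine transporter Slc6a5 4.14 ± 0.176 RPKM and the proline transporter Slc6a7 2.53 ± 0.132 RPKM. Rows of the less certain kind behaved unevenly in this family. The row named Slc6a15 had 171.71, 149.81 and 0.05 RPKM, and the row named Slc6a14 had 0.04, 0.10 and 114.39 RPKM. Slc6a15 was thus high in replicates 1 and 2 and Slc6a14 in replicate 3 alone, and neither level can be relied on. Both rows enter only the first of the family shares above.

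**Figure D2:**
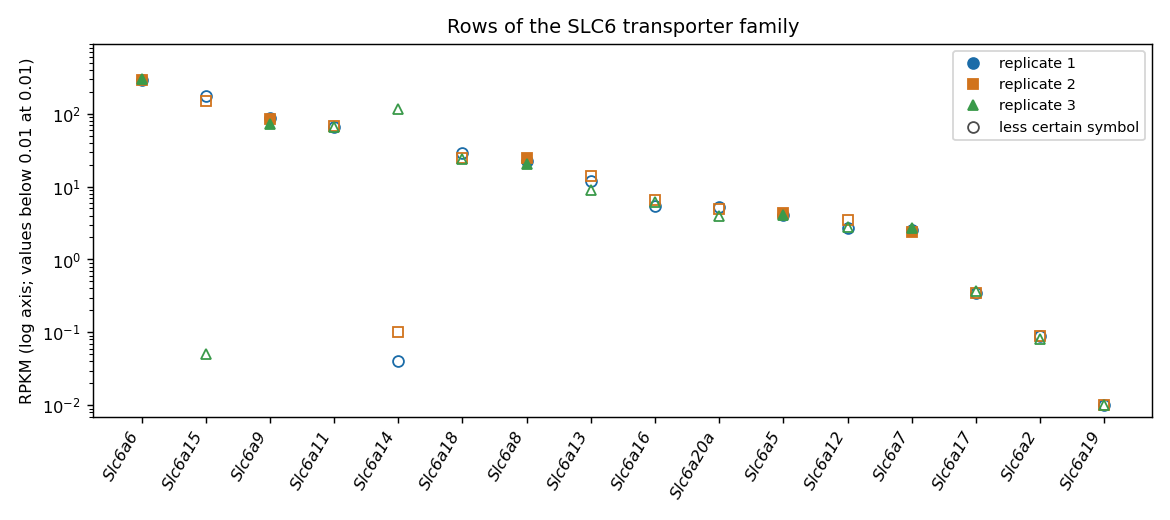
RPKM of 16 SLC6 family rows in 3 retina pools (log axis, symbols by replicate, open symbols for less certain gene symbols), in order of mean. Slc6a6 is highest with its 3 points nearly on top of each other (285.77 to 300.45 RPKM), whereas Slc6a15 and Slc6a14 each have points several powers of 10 apart.

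Other carriers that can move taurine were lower. Slc16a6, a monocarboxylate transporter family member reported to export taurine, had 27.24, 28.22 and 27.31 RPKM, and Slc6a6 exceeded it 10.6 ± 0.440 times. The proton-coupled amino acid transporter Slc36a1 had 7.36, 7.78 and 7.61 RPKM, and Slc6a6 exceeded it 38.5 ± 1.57 times. The SD of each of these ratios was 0.06 on the log2 scale. The rows named Slc6a11 (66.7 ± 1.47 RPKM), a GABA transporter and the highest of this list, Slc6a13 (11.5 ± 2.49 RPKM), a GABA and taurine transporter, and Slc6a12 (2.99 ± 0.472 RPKM), the betaine transporter, have less certain symbols. The ratio of Slc6a6 to Slc6a13 had an SD of 0.36 on the log2 scale.

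Taurine leaves swollen cells through volume-regulated anion channels, which are built from LRRC8 subunits around the obligatory subunit LRRC8A. Of the 5 subunit genes, 4 reached 1 RPKM in every replicate, against 77.5% of all genes. Lrrc8b was highest with 34.5 ± 1.56 RPKM, followed by Lrrc8a with 21.57, 14.05 and 18.44 RPKM and Lrrc8d with 11.5 ± 0.408 RPKM. The Lrrc8b values lay above every Lrrc8a value, and Lrrc8a lay above Lrrc8d in each pool. Lrrc8c had 2.22 ± 0.328 RPKM and Lrrc8e 0.33 ± 0.0173 RPKM.

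Among the remaining synthesis enzymes, Ado, which turns cysteamine into hypotaurine by a route that bypasses Csad, had 6.74, 6.12 and 5.93 RPKM. Ado exceeded Cdo1 by 2.05, 1.28 and 1.83 times, so the order held in 3 of 3 replicates, with the smallest gap in replicate 2. Fmo1, a monooxygenase able to oxidise hypotaurine, was listed at 0.19, 0.11 and 0.09 RPKM, and the pantetheinase gene Vnn1, whose product releases cysteamine, at 0.03 to 0.05 RPKM. Gadl1, a relative of Csad, and Vnn3 had no row under these symbols and so were not analysed here.

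Csad belongs to a family of decarboxylases that use pyridoxal phosphate. It held 15.7% ± 0.448 (SD, n = 3) of the summed RPKM of the 5 family members with a row. Gad1, which makes GABA, took 69.9% ± 0.916 with 66.5, 74.98 and 56.49 RPKM, and it exceeded Csad by 4.44 ± 0.0866 times. Both genes, as deposited, were highest in replicate 2 and lowest in replicate 3. The column sums had this order too, and once the columns were scaled Csad was highest in replicate 1 (15.6, 15.3 and 13.5). Csad exceeded the histidine decarboxylase gene Hdc by 2.04 ± 0.157 times and Gad2 by 2.62 ± 0.413 times, each in 3 of 3 replicates. Ddc, the aromatic amino acid decarboxylase of dopamine synthesis, had 0.47 ± 0.1 RPKM.

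Cysteine for synthesis comes from methionine through the methionine cycle and transsulfuration, or from outside the cell. In the first group 7 of 8 genes had a row, and all 7 reached 1 RPKM in every replicate, against 77.5% of all genes. Mat2a, which makes S-adenosylmethionine, was highest with 70.12, 99.31 and 80.45 RPKM, and its partner subunit Mat2b had 18.3 ± 2.07 RPKM. The transsulfuration enzymes were low. Cth, which releases cysteine, had 2.55, 3.33 and 2.29 RPKM, and Cbs, which precedes it, had 1.62, 1.94 and 1.18 RPKM. Cdo1 exceeded Cth by 1.38 ± 0.0775 times and Cbs by 2.41 ± 0.360 times, in 3 of 3 replicates each. All 3 genes were highest in replicate 2, as deposited and after scaling. The column sum was also highest there, and the share of all genes highest in that replicate was not counted. Of the methyl cycle genes, Mtr (methionine synthase) had 3.83 ± 0.628 RPKM, Gnmt 3.34 ± 0.546 RPKM and Ahcy 2.38 ± 0.456 RPKM.

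Of the 7 genes of cystine and cysteine uptake, 4 reached 1 RPKM in every replicate, against 77.5% of all genes. Slc3a2, the heavy chain shared by several amino acid exchangers, had 43.2 ± 9.40 RPKM. The excitatory amino acid transporter Slc1a1, which also carries cysteine, had 10.9 ± 0.947 RPKM, and the neutral amino acid transporters Slc1a5 and Slc1a4 had 6.01 ± 0.741 and 5.51 ± 0.896 RPKM. The row named Slc7a11, the cystine exchanger subunit that pairs with Slc3a2, was listed at 0.50, 0.56 and 0.56 RPKM under a less certain symbol.

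Genes listed under other uses of cysteine or cysteine sulfinate were compared with the members. Gclm, Gss, Mpst and Suox are among them, though their products do not act on either substrate directly. Got1, the cytosolic aspartate aminotransferase, which also accepts cysteine sulfinate, had 121.96, 136.31 and 93.45 RPKM and exceeded Csad by 7.85 ± 0.359 times. It was the highest of the other pathway genes and still below Slc6a6, which exceeded it by 2.56 ± 0.582 times. The mitochondrial Got2 had 33.0 ± 5.20 RPKM. For cysteine itself, the glutathione enzyme gene Gclc had 12.0 ± 0.995 RPKM and exceeded Cdo1 by 3.25 ± 0.504 times. Its modifier subunit Gclm had 13.5 ± 0.766 RPKM, the glutathione synthetase Gss 12.6 ± 1.48 RPKM and the cysteine desulfurase Nfs1 20.2 ± 3.30 RPKM. Each of these 4 genes was above Cdo1 in every replicate. Mpst, a cysteine-derived sulfur transferase, had 2.79 ± 0.261 RPKM and lay below Cdo1 in every replicate. Suox, the sulfite oxidase, had 5.34 ± 0.787 RPKM and lay above Cdo1 in each.

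Genes that use taurine or handle other osmolytes were of middling or low level. Mto1 and Gtpbp3, which together place a taurine-containing modification on mitochondrial transfer RNAs, had 6.58 ± 0.582 and 8.17 ± 0.722 RPKM. Pter, an N-acetyltaurine hydrolase, had 1.22 ± 0.0416 RPKM, and the row named Baat, the enzyme that joins bile acids to taurine, had 0.297 ± 0.0351 RPKM under a less certain symbol. Nfat5, a transcription factor of the response to hypertonicity that acts on Slc6a6, had 6.20, 6.76 and 7.87 RPKM. Slc5a3, the transporter of the osmolyte myo-inositol, had 1.01, 0.88 and 1.12 RPKM. The inositol transporter was thus far below the taurine transporter in each pool. Akr1b3, the aldose reductase that makes sorbitol, was listed at 0 in each replicate. A listed 0 may be a failed estimate here, since the ribosomal protein gene Rpl26 was also among the 149 genes at 0 throughout.

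**Figure D3:**
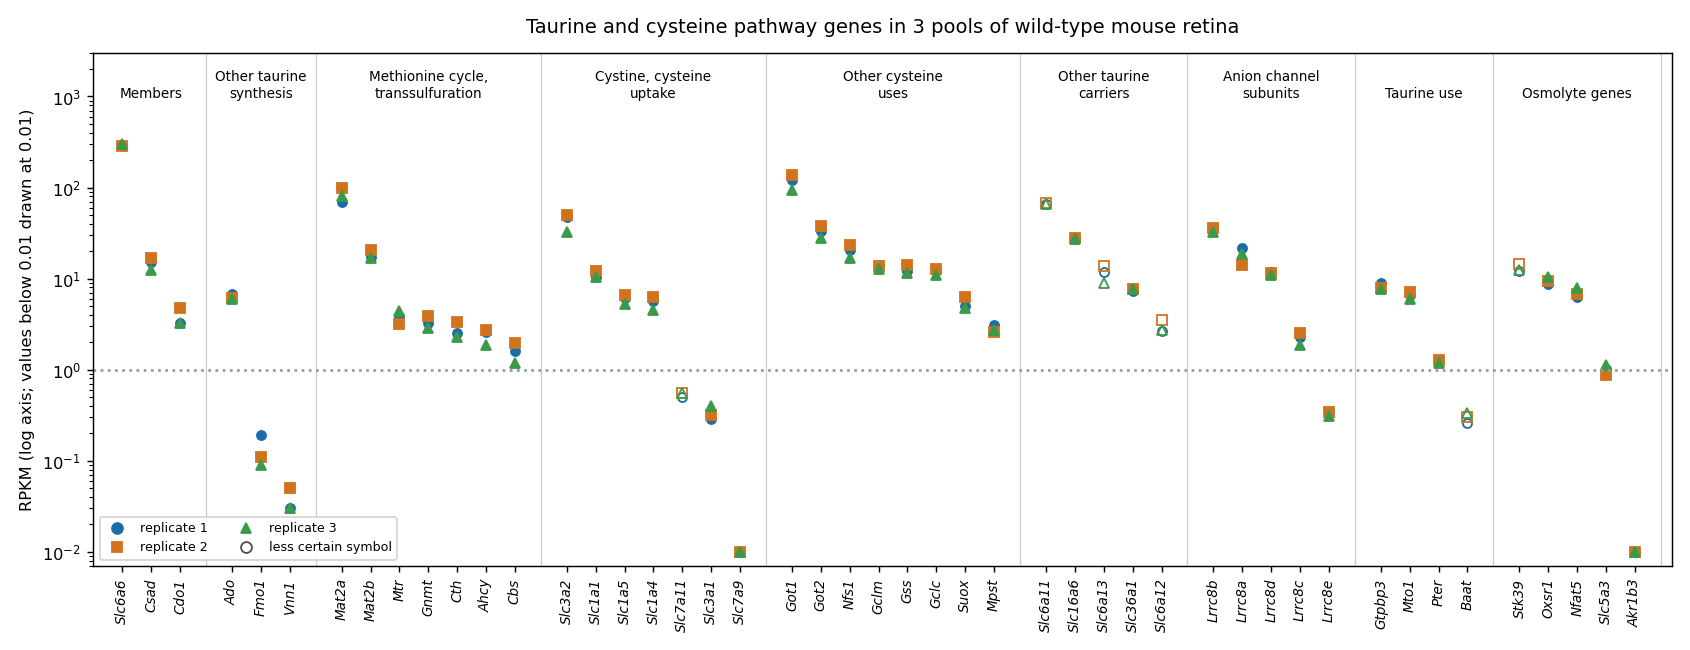
RPKM of the members and of the other taurine and cysteine pathway genes in 3 retina pools (log axis, symbols by replicate, open symbols for less certain gene symbols, dotted line at 1 RPKM). Slc6a6 (mean 292 RPKM) is above every other gene shown, Csad (14.9) is in the middle range, and Cdo1 (3.77) lies between Mtr and Gnmt by mean.

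Of 48 other pathway genes, 45 had a row and 35 of these (77.8%) had 1 RPKM or more in every replicate, against 77.5% of all genes. The median of their means was 6.26 RPKM, as it was over all genes. All 3 members had 1 RPKM or more in every replicate. Among the 41 members and pathway genes without a less certain symbol, Slc6a6 ranked 1st, Csad 11th and Cdo1 27th. Csad was not separated from its neighbours, since Lrrc8a above it and Gclm below it each changed places with it in 1 replicate. Cdo1 changed places with Mtr above it in 1 replicate and lay above Gnmt in each.

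The spread of the members between pools was read from a fit over all genes with a mean of at least 1 RPKM. In an F test against limma's robust prior variance, 679 of 12562 genes (5.41%) varied between replicates more than genes of their level, at an adjusted p under 0.05. None of the 3 members was among them (adjusted p = 0.993 each, limma), and 0 of 3 had an unadjusted p under 0.05, against 1045 of the 12562 genes. With limma's non-robust prior 0 of 12562 genes were called, so that fit says nothing of the members. Without the less certain symbols 98 of 10474 genes (0.936%) varied, again with 0 of 3 members. Of the other pathway genes tested, 0 of 36 passed with the robust prior. Lrrc8a, lowest in replicate 2, had an unadjusted p under 0.05 in limma with all genes, and Lrrc8a and Mtr had one without the less certain symbols. A p of this size does not show that the pools had equal levels.

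The spread of Slc6a6 depended on how the columns were scaled. As deposited, its SD on the log2 scale was 0.04, and only 2.51% of the 12562 genes had a smaller one. After division by scaling factors of 0.984, 1.09 and 0.931, its values were 295, 262 and 323 and its SD rose to 0.15, larger than that of 52.2% of genes. Replicate 2 was lowest and replicate 3 highest with and without scaling. For Csad the SD went from 0.21 to 0.11 and for Cdo1 from 0.31 to 0.20. The scaled values of Csad were 15.6, 15.3 and 13.5, lowest in replicate 3 as before, and those of Cdo1 were 3.34, 4.37 and 3.48. The median SD of all genes was 0.19 as deposited and 0.15 after scaling.

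**Figure D4:**
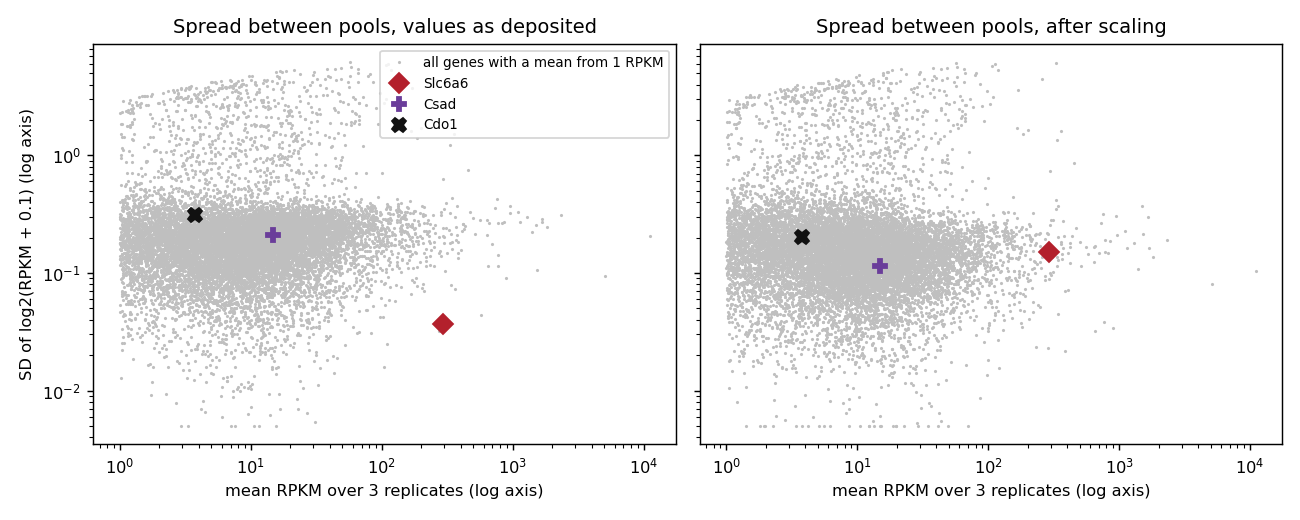
SD of log2(RPKM + 0.1) over 3 pools against mean RPKM (both log axes) for all genes with a mean from 1 RPKM (grey) and for the members, as deposited (left) and after scaling (right). Slc6a6 lies at the lower edge as deposited (0.04) and among genes of its level after scaling (0.15), while Csad and Cdo1 lie within the cloud in both.

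The 3 members differed in their order of replicates after scaling. None was called as varying, so neither joint nor separate movement can be read from these orders. Relative to its own mean and after scaling, Slc6a6 deviated by 0.01, -0.16 and 0.14 on the log2 scale in replicates 1, 2 and 3, Csad by 0.08, 0.05 and -0.13, and Cdo1 by -0.14, 0.23 and -0.09. Markers of neighbouring tissues moved more. The 7 lens markers had median deviations of -0.03, -1.33 and 1.24, the order of replicates seen for Slc6a6. Cryaa, the highest of them, was instead highest in replicate 1 (scaled values of 2092, 1437 and 1498), whereas the other lens markers had the order of the median. The 7 pigment epithelium markers tested had 0.52, 0.21 and -0.71, the order seen for Csad. The melanin genes Pmel, Mlana, Tyrp1 and Dct had this order. The row named Rpe65, the retinoid isomerase of the epithelium, was highest in replicate 2 (6.25, 20.06 and 6.74 RPKM) under a less certain symbol. The 4 skeletal muscle markers tested had -0.29, 1.00 and -0.70 (6 listed, 3 from 1 RPKM in every replicate, summed 5.89 to 23.7 RPKM, Tnnt3 at 0 in replicate 3), and the 4 surface epithelium markers had -0.06, 0.53 and -0.20 (6 listed, 4 from 1 RPKM, summed 12.1 to 26.5 RPKM, Krt14 near 0). Both list medians were highest in replicate 2, as was Cdo1, but of the surface epithelium genes Krt12 was lowest there and Dcn was highest in replicate 1. The symbols Krt12 and Krt14 are of the less certain kind. The list medians deviated by at most 0.04 for rod markers and by at most 0.06 for Muller glia markers, within which single genes such as Glul, glutamine synthetase, spread more (SD of 0.42). Lists of other cells shared the orders of the members. Amacrine markers (0.09, 0.04 and -0.09) and vascular markers (0.18, 0.04 and -0.13) had that of Csad. Ganglion markers (0.012, -0.047 and 0.013) had that of Slc6a6, though with replicates 1 and 3 almost equal. Rod markers (-0.038, 0.038 and 0.019) had that of Cdo1. With 3 pools few orders are possible. The part of any of these cells or tissues in the levels of the members was not tested.

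**Figure D5:**
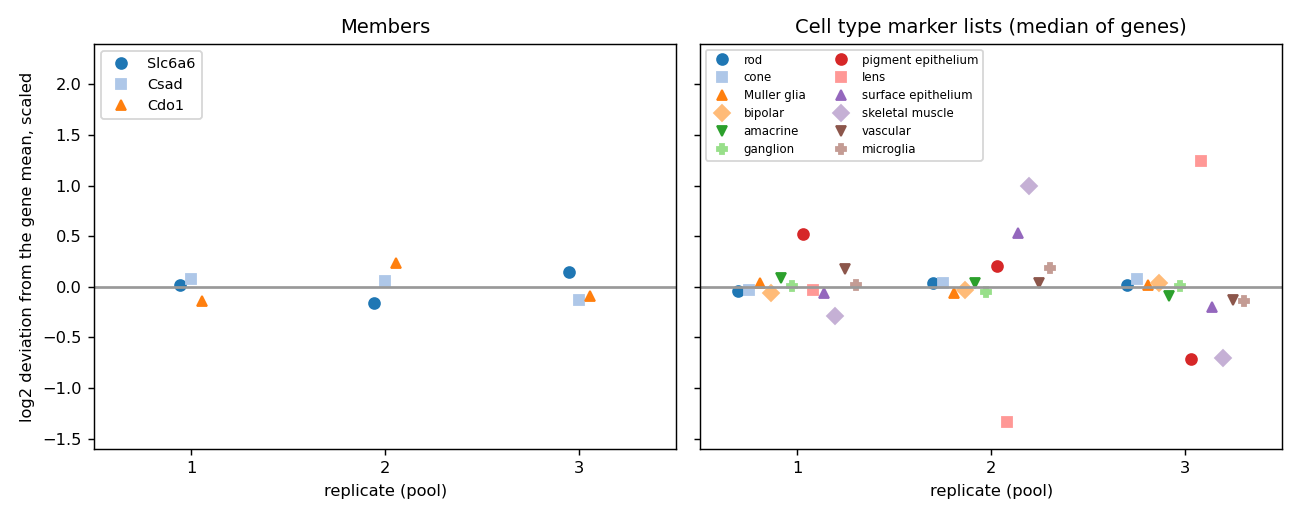
Log2 deviation from the mean over 3 pools, after scaling, for the members (left) and for the median of each cell type marker list (right). The members stay between -0.16 and 0.23, whereas the lens markers span -1.33 to 1.24 and the pigment epithelium markers -0.71 to 0.52.

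The pathway genes nearest in pattern were found by the root mean square difference of these deviations over 3 replicates, among 50 candidates per member. For Slc6a6 they were Slc6a7 (0.03), Gad2 (0.05) and Slc36a1 (0.05). For Csad they were Lrrc8c (0.01), Gad1 (0.02) and Slc1a4 (0.02), and for Cdo1 they were Cth (0.07), Slc6a12 (0.08) and Suox (0.09). With 3 replicates such likeness is common. Of all genes tested, 1.28% were as near to Slc6a6 as Slc6a7, 0.374% as near to Csad as Lrrc8c and 4.21% as near to Cdo1 as Cth.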

How the data were processed

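The submitters' processing notes name the mm9 build, GSNAP and HTSeq, without versions. The annotation, the filters and the way technical replicates were combined are not stated. Values deposited by the authors have 2 decimals and were read as RPKM from their range and form, since neither header nor label gives a unit; FPKM would look alike. Steps of whole reads are finer than the rounding of 0.01 allows for low genes, so depth is unknown. Of 15468 rows, 3 symbols stood on 2 rows with equal values and were kept once. No coordinates are printed, because the annotation at hand is of another build.

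Columns were scaled by their trimmed mean log ratio to the mean profile (30% of ratios and 5% of means trimmed per end) for the variance test and the deviations only. Tests used log2(RPKM + 0.1) and genes with a mean of at least 1 RPKM, in limma 3.58.1 (R 4.3.3) as an F test of each gene's variance against the trended prior at its mean, with Benjamini-Hochberg adjustment at 0.05. The code was tested on simulated data. Ratios were taken on deposited values and tested by exact sign flips. Symbols counted as less certain numbered 2656. All members and all genes of the pathway lists could be named, further pairs and the solute carrier ranking were chosen after seeing the levels, and the members and lists were chosen with earlier results of these data known. A few items of these lists are not reported here.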

Additional observations from a re-analysis of the deposited data

How the results depend on the processing

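The ratios between members kept their direction with a pseudocount of 1 and without each replicate in turn. Slc6a6 over Csad ranged from 4.16 to 4.40 on the log2 scale with a replicate left out, Slc6a6 over Cdo1 from 6.15 to 6.46, and Csad over Cdo1 from 1.85 to 2.05. Among the 8 alternatives of the variance test, the fit with the non-robust prior called no gene and so says nothing of the members. Under the others no member passed (adjusted p from 0.987 to 0.999, limma). The number of genes varying between replicates was 679, but 0 with the non-robust prior (707 at an unadjusted p under 0.05) and 98 without less certain symbols. It was 302 without replicate 2 and at most 467 with another replicate left out. Leaving out those symbols also moved the share of Slc6a6 in its family from 44.0% to 72.6%, since 12 of the 17 rows are then not summed. The cause of the other moves was not tested. No paired comparison between groups was possible because there was only 1 group. Leaving a replicate out of the members' mean levels was added after the data were seen. Unknown depth limits what can be said of genes below 1 RPKM.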
